A study of Mus musculus with 6 samples.

Results

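Efferocytosis is the clearance of apoptotic cells by phagocytes. The 10 genes described here encode its receptors, the bridging molecules that link them to phosphatidylserine on the dying cell, and an adaptor pair that drives engulfment: *Mertk*, *Axl*, *Tyro3*, *Timd4*, *Itgav*, *Gas6*, *Pros1*, *Mfge8*, *Elmo1* and *Dock1*. They were chosen by name from the 36137 genes to which the deposited transcripts could be assigned. All 10 reached the minimum of 10 counts over the 6 libraries and were among the 18506 genes tested.

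The libraries hold poly(A) RNA of bone marrow-derived macrophages (BMDMs) after 8 hours of hypoxia with serum starvation (HSS), a culture model of ischemia. They were made from WT and *Drp1* KO BMDMs, with 3 libraries each, and no library without HSS was analysed here. According to the study's methods, *Drp1* KO cells carried *LysM*-Cre+/- and *Drp1* fl/fl, and WT cells carried *LysM*-Cre+/- and *Drp1*+/+, so both genotypes expressed Cre from the lysozyme M promoter of myeloid cells. Mice of both sexes aged 8 to 12 weeks were used, and marrow of 2 mice per genotype was pooled. Whether each library came from a separate pool is not stated. The p-values thus judge the genotype difference against the spread between these libraries. That spread may be technical, so the p-values may not speak for a difference between mice.

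Signals of the kind encoded by these genes act in sequence. GAS6 and protein S (encoded by *Pros1*) bind phosphatidylserine and activate the TAM receptor tyrosine kinases TYRO3, AXL and MERTK, whereas MFG-E8 binds phosphatidylserine and, through an RGD motif, integrins that contain the alpha v chain encoded by *Itgav*. TIM-4 (*Timd4*) holds phosphatidylserine directly and is a marker of resident macrophages. ELMO1 and DOCK1 together activate the GTPase RAC1, which remodels actin around the cell corpse. MERTK is the TAM receptor most associated with quiescent and repair macrophages, and AXL with inflammatory settings.

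Depth ranged from 23389488 to 32231206 estimated reads per library. The targeted gene, *Dnm1l*, was at 72.7, 69.9 and 75.1 CPM in WT libraries 1 to 3 and at 58.7, 60.7 and 66.3 CPM in *Drp1* KO libraries 1 to 3 (log2 fold change -0.23, standard error 0.0921, adjusted p = 0.248, edgeR). RNA of the gene thus persisted in the libraries labelled *Drp1* KO, and gene totals do not show which exons it held. The paper reports deletion of DRP1 protein, by immunoblot, in BMDMs and peritoneal macrophages from mice of this genotype, and RNA values do not measure protein. CPM values are scaled to TMM-normalized library sizes. All 9 macrophage markers listed, *Adgre1*, *Csf1r* and *Cd68* among them, were above 3 counts in every library. Libraries 1 of both genotypes stood apart: the chi-square statistic per degree of freedom was 28.6 to 29.4 between WT library 1 and the other WT libraries but 9.50 between libraries 2 and 3, and 30.6 to 39.6 against 18.1 in *Drp1* KO libraries. Same-numbered WT and *Drp1* KO libraries deviated together from their group means (r = 0.510, 0.204 and 0.298 for libraries 1, 2 and 3, over 12248 genes). Across numbers, r was 0.326 for number 2 of WT with number 3 of *Drp1* KO, and 0.0802 for the reverse combination. These values do not settle whether libraries 2 and 3 are paired by number, and the paired p-values hold only if they are. Values with the library number as a pair and without libraries 1 are also given for the named genes whose call either of them changes.

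*Mertk* and *Dock1* fell in *Drp1* KO BMDMs, and *Gas6* and *Pros1* were lower, whereas *Axl* and *Itgav* were higher, without passing in the unpaired test. *Mfge8*, *Elmo1*, *Timd4* and *Tyro3* did not pass in any setting that gave a p. With p adjusted over the 18506 genes (edgeR, threshold 0.05), 0 of the 10 genes were higher and 2 were lower, where 2.29% and 1.06% of all genes were called higher and lower and 3.36% in either direction. By the criteria of the study, which take a log2 difference beyond 0.32 in size together with unadjusted p under 0.05, 2 were higher and 4 lower, against 7.19% and 5.48% of all genes and 12.7% in both directions. The study applied these criteria to DESeq2 results, and here they were applied to the edgeR fit. With libraries of the same number as pairs, 2 were higher and 4 lower at an adjusted p under 0.05, against 6.73% and 5.22% of all genes and 12.0% in both directions. Without libraries 1 of both genotypes, an alternative added after the data were seen, 2 were higher and 3 lower (5.94% and 4.56% of all genes, 10.5% in both directions). DESeq2 called 1 higher and 3 lower (3.58% and 2.66% of all genes, 6.24% in both directions). The count of 2 became 0 without WT library 2, without WT library 3 or without *Drp1* KO library 2. On the log2 scale the 10 genes had a median difference of -0.29, and all genes tested one of 0.0046. The median of the 10 lies between *Tyro3* (-0.29) and *Timd4* (-0.30), the genes with the fewest counts, so it does not measure a shift of the set.

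**Figure D1:**
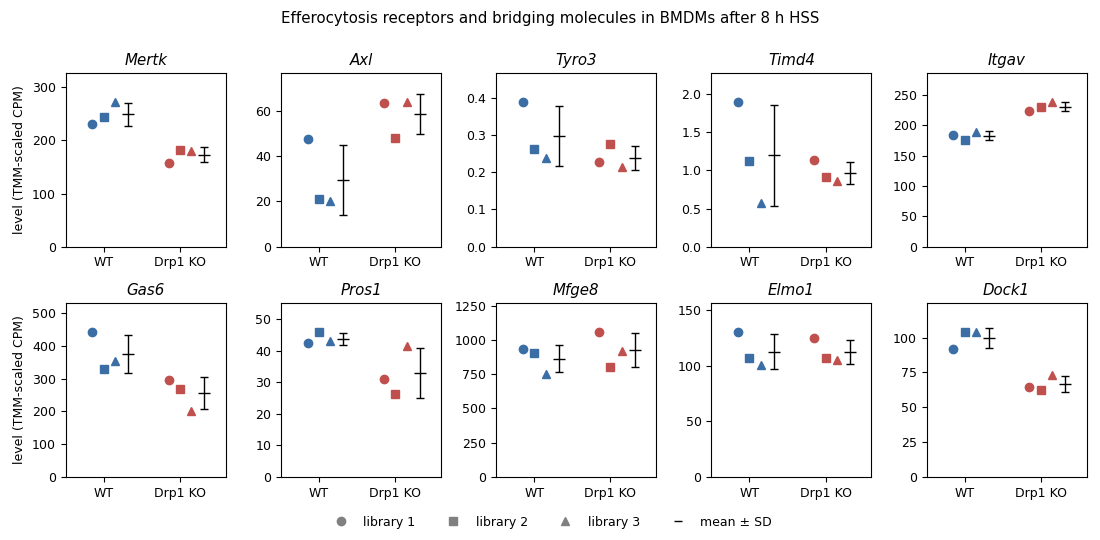
Level of each gene in each library (y axis, TMM-scaled CPM, each panel with its own linear axis from 0), for WT (blue) and *Drp1* KO (red) BMDMs, with symbols for library numbers and black bars for mean ± SD of 3 libraries. *Mertk*, *Gas6*, *Pros1* and *Dock1* lie lower and *Axl* and *Itgav* higher in all 3 *Drp1* KO libraries than in any WT library, and WT library 1 is closest to the *Drp1* KO libraries for *Axl*.

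Of the TAM receptors, *Mertk* (ENSMUSG00000014361, GRCm39 chromosome 2, 128540729 to 128645080) had the highest level per length. It was at 231, 244 and 272 CPM in WT libraries 1 to 3 and at 157, 182 and 181 CPM in *Drp1* KO libraries 1 to 3. The groups did not overlap. *Mertk* fell from 249 ± 21.1 CPM to 173 ± 14.3 CPM (SD of 3 libraries), that is -0.52 ± 0.104 on the log2 scale (SE, edgeR adjusted p = 0.0236). Over the 16 other settings the fold change lay between -0.58 and -0.46, and the call was kept in 12 of them and lost when WT library 2 (adjusted p = 0.101, edgeR) or 3 (0.118) or *Drp1* KO library 2 (0.0840) or 3 (0.0621) was left out. Its exons overlap those of an opposite-strand lncRNA, *Gm39931*. The same holds for *Itgav* (*Gm13684*), *Pros1* (*Gm60971*), *Mfge8* (*Gm73905*) and *Elmo1* (*Gm32036* and *Gm60937*). These lncRNAs were not analysed here, and whether the authors' quantification used strand is not given in the sources used here.

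*Axl* (ENSMUSG00000002602, chromosome 7, 25456535 to 25488329) differed in the opposite direction. Its level was 47.4, 20.9 and 20.0 CPM in WT libraries 1 to 3 and 63.5, 48.2 and 63.9 CPM in *Drp1* KO libraries 1 to 3. WT library 1 was over the other WT libraries and just under *Drp1* KO library 2. The means were 29.5 ± 15.6 and 58.5 ± 8.92 CPM (SD of 3 libraries), that is 0.99 ± 0.289 on the log2 scale (SE, edgeR adjusted p = 0.104). With libraries paired by number it was 1.09 (adjusted p = 0.00340, edgeR), and without WT library 1 it was 1.51 (adjusted p = 0.00065, edgeR). Without libraries 1 of both genotypes it was 1.45 (adjusted p = 0.000411, edgeR).

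*Tyro3* (ENSMUSG00000027298, chromosome 2, 119628214 to 119648738), the TAM receptor best known from the nervous system, was close to the floor of 3 counts, which corresponds to 0.0917 to 0.136 CPM. It had 9, 7 and 7 counts in WT and 5, 9 and 7 counts in *Drp1* KO libraries 1 to 3, and a difference was not detectable at this depth (log2 fold change -0.29, standard error 0.519, adjusted p = 0.868, edgeR). By TPM, *Mertk* and *Axl* accounted for nearly all TAM receptor RNA in these cells.

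*Timd4* (ENSMUSG00000055546, chromosome 11, 46701620 to 46735177) was low in these cultures, at 44, 30 and 17 counts in WT and 25, 30 and 28 counts in *Drp1* KO libraries 1 to 3. Its log2 fold change was -0.30 (standard error 0.423, adjusted p = 0.820, edgeR), and it was 0.18 without WT library 1. The WT libraries alone spanned a wider range than the 3 *Drp1* KO libraries.

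*Itgav* (ENSMUSG00000027087, chromosome 2, 83554403 to 83637260) was at 185, 176 and 189.9 CPM in WT libraries 1 to 3 and at 224, 230.5 and 239 CPM in *Drp1* KO libraries 1 to 3. Every *Drp1* KO library was above every WT library, and the spread within each genotype was small. The means were 183 ± 7.16 and 231 ± 7.12 CPM (SD of 3 libraries), that is 0.33 ± 0.0867 on the log2 scale (SE, edgeR adjusted p = 0.0711). The paired fit gave the same 0.33 (adjusted p = 0.0112, edgeR). Without libraries 1 it was 0.36 (adjusted p = 0.0239, edgeR).

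Among the bridging molecules, *Gas6* (ENSMUSG00000031451, chromosome 8, 13515371 to 13544824) was at 442, 331 and 355 CPM in WT libraries 1 to 3 and at 296, 269.9 and 201 CPM in *Drp1* KO libraries 1 to 3. The groups did not overlap, with WT library 1 and *Drp1* KO library 3 farthest apart. The means were 376 ± 58.5 and 256 ± 49.2 CPM (SD of 3 libraries), that is -0.56 ± 0.156 on the log2 scale (SE, edgeR adjusted p = 0.0918). Paired by library number it was -0.57 (adjusted p = 0.00384, edgeR). Without libraries 1 it was -0.55 (adjusted p = 0.0273, edgeR). Exons of *Gas6* overlap those of *Tmem255b* on the opposite strand, which had at most 1 count in any library.

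*Pros1* (ENSMUSG00000022912, chromosome 16, 62674275 to 62749710), which encodes the anticoagulant protein S, was at 42.4, 45.8 and 43.0 CPM in WT libraries 1 to 3. In *Drp1* KO libraries 1 to 3 it was at 30.9, 26.2 and 41.6 CPM. The third *Drp1* KO library lay just under the WT libraries and the other two well below them. The means were 43.7 ± 1.83 and 32.9 ± 7.88 CPM (SD of 3 libraries), that is -0.41 ± 0.154 on the log2 scale (SE, edgeR adjusted p = 0.210). It passed in the paired fit (-0.43, adjusted p = 0.0455, edgeR) and without *Drp1* KO library 3 (-0.61, adjusted p = 0.0362, edgeR), but not without libraries 1 (-0.39, adjusted p = 0.234, edgeR).

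*Mfge8* (ENSMUSG00000030605, chromosome 7, 78783515 to 78798825) was at 933, 909 and 755 CPM in WT and at 1059, 807 and 920.2 CPM in *Drp1* KO libraries 1 to 3. The groups overlapped. Its log2 fold change was 0.10 (standard error 0.128, adjusted p = 0.790, edgeR), and it became -0.013 without *Drp1* KO library 1. Unlike *Gas6* and *Pros1*, which were lower in all 3 same-numbered pairs, *Mfge8* was lower in 1 pair (-0.17 on the log2 scale, libraries 2) and higher in the other two (0.18 and 0.29); whether *Mfge8* differed from them in its change was not tested.

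*Gas6*, *Pros1* and *Axl* are also genes of fibroblasts and endothelial cells, and the RNA comes from bulk cultures, in which fewer cells of a type and less RNA per cell cannot be told apart. The 9 fibroblast and stromal markers listed summed to 2.76 to 3.71 CPM in WT and 2.23 to 2.98 CPM in *Drp1* KO libraries, with *Col1a1* at most at 1.12 CPM and *Lum* at 4 counts over all 6 libraries. The summed level of the 6 endothelial markers was 48.3 to 64.3 CPM in WT and 46.2 to 62.5 CPM in *Drp1* KO libraries, nearly all of it *Vwf* and *Kdr*, with *Cdh5* at 0.0681 to 0.580 CPM. Of the 5 endothelial markers tested, 2 had positive and 3 had negative fold changes. *Kdr* rose (log2 fold change 0.94, adjusted p = 0.0144, edgeR), whereas *Vwf* was at -0.40 (adjusted p = 0.313, edgeR). *Vwf* passed as lower without libraries 1 (-0.63, adjusted p = 0.0398, edgeR) but not in the paired fit (adjusted p = 0.116, edgeR). The 11 neutrophil markers summed to 90.4 to 98.5 CPM in WT and 119 to 222 CPM in *Drp1* KO libraries, of which *Mmp8* made up most, and all 8 that were tested had positive fold changes, of which 5 met the unadjusted criteria (7.19% of all genes did so in that direction) and 0 passed the adjusted test. In the paired fit 5 passed, all higher (6.73% of all genes), namely *S100a8*, *S100a9*, *Ltf*, *Ngp* and *Mmp8*, with adjusted p of 0.00145, 7.85e-05, 0.0194, 0.00264 and 0.0232 (edgeR). Without libraries 1, 4 passed (5.94% of all genes), all but *Mmp8* (adjusted p = 0.214, edgeR). *Ly6g* had 0 counts and *Elane* 8 over the 6 libraries. Lymphocyte markers summed to 7.78 to 9.44 and 7.90 to 11.4 CPM, and dendritic cell markers to 4.78 to 7.31 and 2.86 to 5.88 CPM. Of the macrophage markers, *Csf1r* fell (log2 fold change -0.52, adjusted p = 0.0340, edgeR) and *Fcgr1* rose (1.34, adjusted p = 0.000322, edgeR). The part of any of these in the changes above was not tested.

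Of the engulfment pair, *Dock1* (ENSMUSG00000058325, chromosome 7, 134272372 to 134775375), the exchange factor that loads RAC1 with GTP, had the smallest p of the 10 genes. It was at 91.7, 104 and 104 CPM in WT libraries 1 to 3 and at 64.3, 62.6 and 73.1 CPM in *Drp1* KO libraries 1 to 3. *Dock1* fell from 99.9 ± 7.05 to 66.7 ± 5.64 CPM (SD of 3 libraries), that is -0.58 ± 0.101 on the log2 scale (SE, edgeR adjusted p = 0.0129). The groups were well apart. The fold change lay between -0.65 and -0.53 over the 16 other settings, and the call was lost without WT library 2 (adjusted p = 0.0849, edgeR), WT library 3 (0.0695) or *Drp1* KO library 2 (0.0848).

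*Elmo1* (ENSMUSG00000041112, chromosome 13, 20274428 to 20792523), the adaptor that binds DOCK1, was at 130.0, 107 and 100.3 CPM in WT libraries 1 to 3. In *Drp1* KO libraries 1 to 3 it was at 125, 107 and 105 CPM. Both genotypes showed the same pattern, with library 1 highest. The log2 fold change was -0.0062 (standard error 0.12, adjusted p = 0.991, edgeR), and with a library left out it lay between -0.10 and 0.11.

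**Figure D2:**
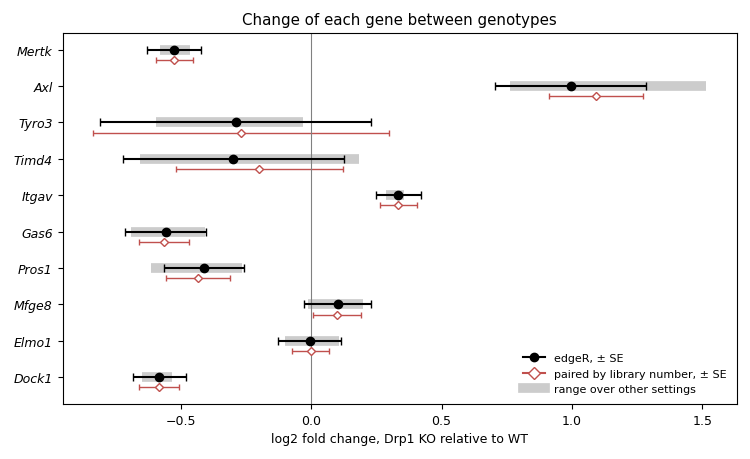
Log2 fold change of each gene, *Drp1* KO relative to WT (x axis), from the unpaired edgeR fit (black, ± standard error) and the fit paired by library number (red diamonds, ± standard error), with the range over the 16 other settings in gray. *Mertk*, *Gas6*, *Pros1* and *Dock1* stay below 0 and *Axl* and *Itgav* above 0 throughout, while *Timd4*, *Mfge8* and *Elmo1* cross 0.

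The groups did not overlap for 6 of the 10 genes, 2 higher and 4 lower in *Drp1* KO BMDMs, where 11.7% and 10.3% of all genes tested did so and 21.9% in both directions. Each of the 6 had a two-sided exact permutation p of 0.1, the lowest that this number of libraries allows. The number was 5 with median-of-ratios or library-size scaling, with length-scaled counts and with protein-coding transcripts only, and 7 without *Drp1* KO library 2.

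Levels of different genes were compared per length, as the sum of the deposited TPM of a gene's transcripts. In WT BMDMs the order was *Mfge8* (575 ± 27.3 TPM), *Gas6* (184 ± 26.5), *Mertk* (89.1 ± 11.4), *Itgav* (43.6 ± 2.73), *Elmo1* (38.2 ± 4.16), *Pros1* (22.1 ± 1.48), *Dock1* (20.9 ± 2.44), *Axl* (13.8 ± 7.86), *Timd4* (0.906 ± 0.467) and *Tyro3* (0.217 ± 0.119), each with the SD over 3 libraries. Neighbours whose library ranges overlapped were *Itgav* and *Elmo1*, *Pros1* and *Dock1*, and *Dock1* and *Axl*. *Mfge8* RNA thus stood well above that of the TAM ligands and receptors. In *Drp1* KO BMDMs *Axl* (26.6 ± 7.88 TPM) stood above *Pros1* (15.8 ± 4.35 TPM) and *Dock1* (13.1 ± 1.52 TPM), although the ranges of *Axl* and *Pros1* overlapped, and *Mertk* (57.2 ± 6.82 TPM) overlapped *Itgav* (51.6 ± 3.21 TPM). The other ranks were as in WT cells.

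**Figure D3:**
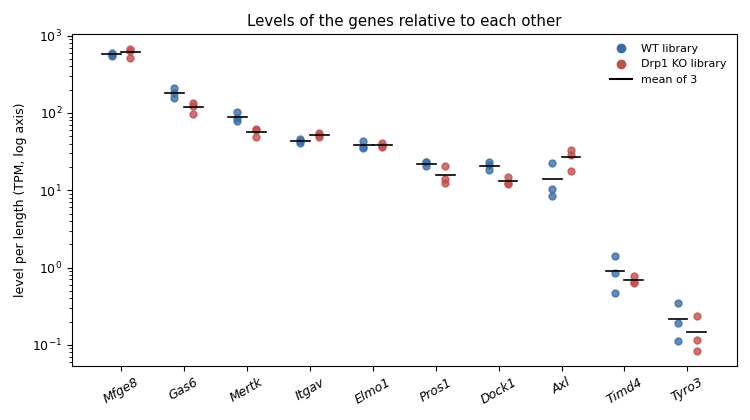
Level per transcript length of each gene (y axis, TPM on a log axis) in each WT (blue) and *Drp1* KO (red) library, with black bars for the mean of 3 libraries and genes ordered by their WT mean. *Mfge8* is highest at 575 TPM in WT BMDMs, and *Tyro3* lowest at 0.217 TPM.

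Within a library, the ratio of *Mertk* to *Axl* TPM, which was chosen after the values were seen and is a description, was 3.50, 10.3 and 9.94 in WT libraries 1 to 3. It was 1.49, 3.39 and 2.14 in *Drp1* KO libraries 1 to 3. *Mertk* was the more abundant RNA in all 6 libraries, and every *Drp1* KO library had a lower ratio than every WT library, with WT library 1 and *Drp1* KO library 2 nearly level.

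The sequence just before the start of *Mertk* and *Dock1*, the genes that passed the test, is shown with that of *Itgav* and *Timd4*, the genes among the 10 in which a motif was found. Each is the 250 bases upstream of the canonical transcript's start in GRCm39 and GENCODE, read 5′ to 3′ on the gene's strand, and capitals mark a match, on either strand, to 1 of 4 motifs: the interferon-stimulated response element core, ACGTG (hypoxia response element core), GAGGAAG (PU.1 core) and TGCTGA (MAF motif). *Mertk* is at chr2:128540535-128540784, *Dock1* at chr7:134272122-134272371, *Itgav* at chr2:83554153-83554402 and *Timd4* at chr11:46701370-46701619, all on the plus strand.
Mertk: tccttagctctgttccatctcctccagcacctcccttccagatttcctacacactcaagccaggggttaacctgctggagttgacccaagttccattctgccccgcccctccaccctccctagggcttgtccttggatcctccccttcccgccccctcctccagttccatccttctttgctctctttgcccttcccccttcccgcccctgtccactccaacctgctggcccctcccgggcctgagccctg
Dock1: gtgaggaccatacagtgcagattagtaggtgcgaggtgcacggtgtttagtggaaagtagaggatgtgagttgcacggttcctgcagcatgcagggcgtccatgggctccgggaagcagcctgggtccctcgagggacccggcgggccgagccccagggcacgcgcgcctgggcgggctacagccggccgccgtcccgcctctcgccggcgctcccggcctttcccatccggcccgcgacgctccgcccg
Itgav: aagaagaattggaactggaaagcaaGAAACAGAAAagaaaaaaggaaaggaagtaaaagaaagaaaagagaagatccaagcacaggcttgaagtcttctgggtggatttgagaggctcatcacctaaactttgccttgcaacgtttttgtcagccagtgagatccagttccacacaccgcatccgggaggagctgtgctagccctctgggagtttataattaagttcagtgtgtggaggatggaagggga
Timd4: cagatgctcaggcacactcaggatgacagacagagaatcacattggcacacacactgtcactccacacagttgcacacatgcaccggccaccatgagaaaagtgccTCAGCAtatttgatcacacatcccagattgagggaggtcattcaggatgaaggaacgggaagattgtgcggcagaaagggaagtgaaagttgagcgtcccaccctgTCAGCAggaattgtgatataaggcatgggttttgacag
Those of *Mertk* and *Dock1* were both rich in G and C (61.6% and 70.0%, against a median of 53.2% over 21757 protein-coding genes) but differed in CpG dinucleotides, with 4 in *Mertk* and 27 in *Dock1* and a median of 8. *Itgav* had 44.8% G and C and 3 CpG. The interferon-stimulated response element core was found before 1 of the 10 genes, *Itgav*, and before 3.32% of all protein-coding genes. TGCTGA was found before 1, *Timd4*, with 2 matches, both on the other strand (TCAGCA as printed), against 14.8% of all genes. ACGTG and GAGGAAG, present before 17.0% and 10.3% of all genes, were before none of the 10. A match is a run of letters and not a bound site.

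The genes around these 10 in the clearance of apoptotic cells were read as 7 lists by role, with 97 genes in all. Of these, 92 reached the minimum count, and 5 did not (*Adgrb1*, *Havcr1*, *Megf10*, *Arhgef16* and *Rab17*, with at most 1 count in total). At an adjusted p under 0.05 (edgeR) 1 was higher and 5 were lower in *Drp1* KO BMDMs, where 2.29% and 1.06% of all genes were called higher and lower. The paired fit called 13 higher and 14 lower (6.73% and 5.22% of all genes), and 1 gene in all was called when WT library 2 or 3 or *Drp1* KO library 2 was left out, against 2 genes without *Drp1* KO library 3. Over the 92 genes the median log2 difference was -0.048, close to that of all genes.

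Among 17 other receptors of apoptotic cells tested, 0 were called higher and 1 lower, where 2.29% and 1.06% of all genes were. *Stab1*, the phosphatidylserine and scavenger receptor stabilin-1, was at 208, 173 and 198 CPM in WT and 117, 102 and 117 CPM in *Drp1* KO libraries 1 to 3. It fell by 0.79 on the log2 scale (standard error 0.106, adjusted p = 0.00339, edgeR) and passed in all 16 other settings. *Lrp1*, a receptor for calreticulin on dying cells, was at -0.44 (log2 difference, standard error 0.154, adjusted p = 0.179, edgeR) and passed in the paired fit (adjusted p = 0.00480, edgeR) and without libraries 1 (0.0117).

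None of the 5 integrin beta chains that pair with alpha v was called, 0 higher and 0 lower. *Itgb3* (log2 fold change -0.51, standard error 0.128, adjusted p = 0.0629, edgeR) and *Itgb5* (-0.42, 0.107, adjusted p = 0.0669, edgeR) had lower levels in every *Drp1* KO library than in any WT library, the direction opposite to that of *Itgav*, and both passed in the paired fit (adjusted p = 0.00927 and 0.00454, edgeR) and without libraries 1 (0.00431 and 0.0198). They went from 96.1 ± 5.0 to 67.5 ± 12.0 CPM and from 118 ± 13.5 to 87.9 ± 5.88 CPM (SD of 3 libraries). *Itgb1* was at 914 ± 40.4 and 916 ± 50.9 CPM. The groups also did not overlap in CPM for *Itgb8*, named after its values were seen, at 0.375 to 0.60 CPM in WT and 0.0908 to 0.336 CPM in *Drp1* KO libraries. It had 11, 16 and 11 counts in WT and 2, 11 and 7 counts in *Drp1* KO libraries 1 to 3, near the floor of 3 counts. WT library 3 and *Drp1* KO library 2 thus had equal counts. In all, 3 of the 5 chains were lower without overlap, as were 10.3% of all genes tested. The log2 fold change of *Itgb8* was -1.10 (standard error 0.542, adjusted p = 0.355, edgeR), and that of *Itgb6* was -0.32 (0.506, adjusted p = 0.847, edgeR). Neither passed in the paired fit or without libraries 1.

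Of the 12 other bridging and opsonising molecules 0 were called in either direction. *Anxa1* and *Calr*, named after their values were seen, did not overlap between the groups, *Anxa1* higher and *Calr* lower in *Drp1* KO (11.7% and 10.3% of all genes did so). *Anxa1* was at 0.55 (log2 difference, standard error 0.147, adjusted p = 0.0798, edgeR) and passed in the paired fit (adjusted p = 0.00810, edgeR) and without libraries 1 (0.0338). *Calr* was at -0.30 (0.127, adjusted p = 0.264, edgeR) and passed in neither. The C1q chains, which opsonise apoptotic cells, had log2 fold changes of 0.42 (*C1qa*, standard error 0.289), -0.16 (*C1qb*, 0.158) and 0.26 (*C1qc*, 0.131), and *C1qa* and *C1qc* passed in the paired fit (adjusted p = 0.0258 and 0.0320, edgeR). Without libraries 1, *C1qa* passed (0.61, adjusted p = 0.0197, edgeR) and *C1qc* did not (0.26, adjusted p = 0.0588, edgeR), and the paired fit was the 1 setting of 16 in which *C1qc* was called. Among 19 engulfment genes tested 0 were called. *Cdc42*, named after its values were seen, was higher in every *Drp1* KO library than in any WT library. Its log2 fold change was 0.39 (standard error 0.102, adjusted p = 0.0705, edgeR). *Cdc42* passed in the paired fit (adjusted p = 0.00494, edgeR) and without libraries 1 (0.00901). *Dock2*, the DOCK protein of blood cells, was at 488 ± 13.5 and 437 ± 18.2 CPM (log2 fold change -0.16, standard error 0.0889, adjusted p = 0.428, edgeR). By TPM it stood over *Dock1* by 4.87 to 5.89 times in WT and 6.80 to 7.56 times in *Drp1* KO libraries. *Elmo2* was at 0.069 (log2 difference, standard error 0.110), *Rac1* at 0.095 (0.114) and *Rhog* at 0.014 (0.113). *Rac2* had 0.30 (standard error 0.134, adjusted p = 0.306, edgeR) and passed in the paired fit (adjusted p = 0.0185, edgeR) and without libraries 1 (0.0350).

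Among 10 genes of receptor shedding and of the signals that inhibit uptake, 1 was called higher and 1 lower, where 2.29% and 1.06% of all genes were. *Adam17*, the sheddase that cleaves MERTK from the cell surface, was at 296, 324 and 267 CPM in WT and 217, 198 and 229.5 CPM in *Drp1* KO libraries 1 to 3. Its log2 fold change was -0.46 (standard error 0.105, adjusted p = 0.0432, edgeR). *Cd47*, the signal that inhibits phagocytosis through SIRPA, was at 482.5, 399 and 407 CPM in WT and 658, 631 and 624 CPM in *Drp1* KO libraries 1 to 3. It rose by 0.57 on the log2 scale (standard error 0.103, adjusted p = 0.0159, edgeR). Neither *Adam17* nor *Cd47* overlapped between the groups. *Sirpa*, named after its values were seen, had -0.095 (log2 difference, standard error 0.106, adjusted p = 0.752, edgeR). The RNA is that of the macrophage cultures, and uptake was not measured in these libraries.

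Of 12 nuclear receptors and transcription factors that induce genes of this pathway, 0 were called higher and 1 lower, where 2.29% and 1.06% of all genes were. *Maf*, a factor of mature macrophages, fell from 809 ± 84.1 to 568 ± 41.9 CPM (SD of 3 libraries), that is -0.51 ± 0.110 on the log2 scale (SE, edgeR adjusted p = 0.0335). *Nr1h3*, which encodes the liver X receptor alpha, had 0.16 (standard error 0.114, adjusted p = 0.550, edgeR). Of 17 genes of phagosome maturation and corpse disposal tested, 0 were called higher and 2 lower, against the same shares of all genes. *Abca1*, which exports the cholesterol taken up with corpses, fell from 1902 ± 175 to 1337 ± 64.8 CPM (log2 fold change -0.51, standard error 0.106, adjusted p = 0.0297, edgeR), and its relative *Abca7* from 19.5 ± 1.32 to 13.6 ± 0.689 CPM (-0.51, 0.115, adjusted p = 0.0401, edgeR). Calls of *Adam17*, *Maf*, *Abca1*, *Abca7* and *Cd47* held in 9, 9, 12, 10 and 13 of the 16 other settings.

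**Figure D4:**
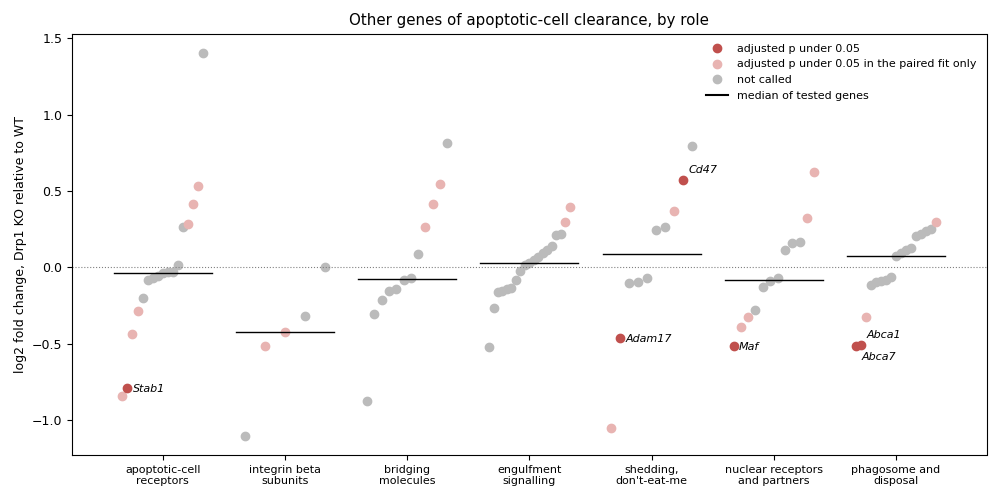
Log2 fold change, *Drp1* KO relative to WT (y axis), of the 92 other genes tested, grouped by role (x axis), with a black bar for each list's median. Red points passed at an adjusted p under 0.05 (*Stab1*, *Adam17*, *Maf*, *Abca1*, *Abca7* and *Cd47*), and pale red points passed in the fit paired by library number.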

How the data were processed

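The authors quantified paired-end reads of each library with kallisto 0.46.1 against Ensembl cDNA of GRCm39 and deposited, per transcript, an estimated count (not scaled between libraries) and a TPM value (scaled for effective length and depth). The sample labels name a stranded mRNA kit. They give 2.1% oxygen, and the paper's methods 2%. Transcripts were matched by identifier to GENCODE vM39 (99.4% of 116873). The others held up to 0.575% of the counts in a library. Estimated counts were summed per gene and rounded. Genes with at least 10 counts were tested with edgeR 4.0.16 (TMM, quasi-likelihood, Benjamini-Hochberg adjustment) in R 4.3.3, *Drp1* KO against WT with no covariate, after the script had been tested on simulated data. Standard errors are the fold change over the square root of F. DESeq2 1.42.0, limma-voom 3.58.1 and 14 other settings were alternatives. The library number was taken to pair libraries because all 3 same-numbered pairs correlated over 0.1. Correlations of differently numbered pairs ran from -0.443 to 0.326, the highest being above those of same-numbered libraries 2 and 3. Counting intervals and the floor of 3 counts cover counting error only.

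The 10 genes, the 7 lists and the markers were chosen with earlier results of these data known. Of the lists, each gene passing the test was named, with *Itgb1*, *Itgb3*, *Itgb5*, the C1q genes, *Elmo2*, *Dock2*, *Rac1*, *Rac2*, *Rhog*, *Lrp1*, *Nr1h3* and *Adam17* whatever their result. Motifs were chosen after the fold changes were known.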

Additional observations from a re-analysis of the deposited data

How the results depend on the processing

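At an adjusted p under 0.05, the number of the 10 genes called was 2, and it was 4 with DESeq2 (6.24% of all genes), 4 with no filter beyond 1 count, 6 with libraries of the same number as pairs (the replicate block), 5 with libraries 1 of both genotypes left out, and 0 to 3 with 1 library left out. Leaving out *Drp1* KO library 2 or WT library 2 or 3 gave 0, although 5, 4 and 6 of the genes still met the unadjusted criteria. By those criteria the count was 4 to 6 in all settings. The number of wider genes called, 6, became 13 with DESeq2, 11 with library size only, 13 with no filter beyond 1 count, 3 with length-scaled counts, 27 with the replicate block, 23 with libraries 1 left out, and 1 to 9 with 1 library left out. The share of all genes called also moved, from 3.36% to 6.24% with DESeq2, 12.0% with the replicate block and 10.5% with libraries 1 left out. The block changed no call of the 10 genes other than *Axl*, *Itgav*, *Gas6* and *Pros1*. The cause of these shifts was not tested. Signs turned for 3 genes that passed nowhere. *Elmo1* (-0.0062) had 0.082 with length-scaled counts, 0.012 with protein-coding transcripts only and 0.024 without libraries 1, and -0.10 to 0.11 with 1 library left out. *Timd4* had 0.068 without libraries 1, and -0.66 to 0.18 with 1 library left out. *Mfge8* had -0.013 to 0.20 with 1 library left out. *Tyro3* did not pass the filterByExpr filter. *Dnm1l* kept its sign and stayed above the threshold in all settings. *Tyro3* had 5 to 9 counts in a library.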

Other observations

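Estimated counts were also read per transcript, with no test, since reads shared between transcripts are divided by kallisto's estimate. The coding transcript Mertk-201 held 89.8%, 90.9% and 92.2% of *Mertk* counts in WT libraries 1 to 3 and 96.1%, 93.5% and 95.3% in *Drp1* KO libraries 1 to 3. The rest lay on Mertk-202, a transcript without a defined coding sequence, at 7.79% to 10.2% in WT libraries and 3.91% to 6.52% in *Drp1* KO ones. With protein-coding transcripts only, the log2 fold change of *Mertk* was -0.46 (adjusted p = 0.0483, edgeR). A retained-intron transcript of *Elmo1*, 3113 bases long, held 6.32% to 7.57% of its counts in WT libraries and 3.69% to 4.59% in *Drp1* KO ones, although the gene's total did not pass the test. For *Itgav*, the coding transcript Itgav-202 held 3.16%, 0.0896% and 2.70% in WT and 9.97%, 18.0% and 3.73% in *Drp1* KO libraries 1 to 3, with Itgav-201 holding 80.3% to 97.8%. The 2 main coding transcripts of *Axl*, Axl-201 and Axl-202, shared its counts at 36.6% to 63.9% and 32.7% to 58.3%, and libraries 1 of both genotypes had the lowest share of Axl-201. *Gas6* had 1 transcript with counts.

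The 250 bases before Mertk-201 end inside the first exon of Mertk-202, which starts upstream of it. In same-numbered pairs, the log2 ratio of *Axl*, *Drp1* KO over WT, was 0.42, 1.21 and 1.67 for libraries 1, 2 and 3, and that of *Mertk* was -0.56, -0.42 and -0.59. That of *Dock1* was -0.51, -0.73 and -0.51, and that of *Gas6* -0.58, -0.29 and -0.82. The ratio of *Gas6* to *Pros1* TPM ran from 6.89 to 10.3 in WT libraries and from 4.66 to 9.95 in *Drp1* KO ones, so that it overlapped between the genotypes.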
